A study of Mus musculus with 10 samples.

Results

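The genes described here are 38 interferon-stimulated genes, chosen by name as genes that cells switch on in response to interferons, and followed across Achilles tendons of 3 mouse genotypes. Of these 38 genes, 36 had a row in the count table and all 36 passed the filter on low counts, out of 32285 genes in the table and 16017 tested. Mx1 and Mx2, which encode antiviral GTPases, had no row and were not analysed here.

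In the conditional mutant of the tendon transcription factor Mkx (Mohawk), a tamoxifen-activated Cre recombinase made from an Mkx-CreER allele was combined with a floxed Mkx allele (Mkx-CreER/flox, 3 libraries). One set of controls carried Mkx-CreER and no floxed allele (Mkx-CreER/+, 3 libraries), and the other carried the floxed allele and no Cre (Mkx flox/+, 4 libraries). Every mouse, controls included, received 20 mg/kg of tamoxifen when 6 weeks old, and the tendons were taken 4 weeks after that. Cre is made where Mkx is active, so tendon cells that do not use Mkx keep the floxed allele. The series text does not give the number of floxed copies in Mkx flox/+, and the sources used here do not say whether the CreER allele itself disrupts Mkx. Libraries are named by genotype and by their column number in the count table. Nothing in the labels says that the libraries of a genotype came from separate animals, so the p-values measure the spread between these libraries.

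Interferons of type I and type III signal through receptor-bound Janus kinases to a complex that holds Stat2 and Irf9 and binds DNA elements built from repeats of GAAA. Genes that respond to interferon-gamma often carry palindromes of the form TTCNNNGAA. Interferon-stimulated genes encode sensors of viral nucleic acids, proteins that block viral replication, enzymes that attach or remove the ubiquitin-like protein Isg15, and parts of the antigen presentation machinery. Macrophages and other myeloid cells carry many of these transcripts at a resting level, and stromal cells make them when exposed to interferon.

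Of the 38 genes, 29 matched a RefSeq promoter window (GRCm38.p6, 250 bases before to 50 after a transcription start), with 33 windows among them. A core of the first kind of element, GAAA followed by any 2 bases and GAAA again, was searched on both strands and found in the windows of 13 of the 29 matched genes (44.8%), against 3.99% of the 27025 genes of the RefSeq table. By window, it stood in 39.4% of the 33 and in 3.44% of all 32851. TTCNNNGAA, whose ends read the same on both strands, was found for 7 of the 29 genes (24.1%), against 9.55% of all genes, and in 21.2% of the 33 windows against 8.30% of all windows. Bst2, Gbp7 and Oas1a held both, and in Bst2 the matches overlap. A match is a description of the letters in the window, not a site, and no protein was mapped to these promoters in the data used here. The following 4 promoter stretches hold paired GAAA matches of genes whose levels are described below. They are examples, since Isg15 and Gbp2, among others, hold such matches as well and are not shown. The stretches are given 5′ to 3′ along the gene's strand, capitals mark the matches, and a match in the opposite direction shows as paired TTTC.
Oas1a, chr5:120907526-120907565, minus strand, bases -40 to -1 from the start: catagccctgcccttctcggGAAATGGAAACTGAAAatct
Ifit3, chr19:34583353-34583436, plus strand, bases -176 to -93: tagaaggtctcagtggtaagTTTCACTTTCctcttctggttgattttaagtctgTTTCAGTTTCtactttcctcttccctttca
Bst2, chr8:71537567-71537622, minus strand, bases -150 to -95: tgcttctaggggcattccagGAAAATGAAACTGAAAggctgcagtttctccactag
Oas3, chr5:120777705-120777754, minus strand, bases -95 to -46: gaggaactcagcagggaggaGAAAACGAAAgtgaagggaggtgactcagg
In Oas1a and Bst2 the capitals are 2 overlapping matches that share a GAAA, Ifit3 holds 2 separate matches in the opposite direction, and Oas3 holds 1. No window was found for Usp18, Dhx58, Zbp1, Oas2, Mx1, Mx2, Ifi27l2a, Rtp4 and Parp14.

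The libraries held between 8680934 and 22656417 counts, at which 3 counts are worth 0.132 to 0.346 CPM (counts per 1000000 counts after TMM scaling). Mkx itself, the targeted gene, had 26.1, 32.4 and 30.5 CPM in Mkx-CreER/flox, against 91.4, 93.8 and 93.5 CPM in Mkx-CreER/+ and 187, 177, 121 and 153 CPM in Mkx flox/+. The 3 genotypes did not overlap, and the log2 fold change in Mkx-CreER/flox, relative to the average of both controls, was -2.04 ± 0.18 (SE, edgeR adjusted p = 0.000149). Below, a comparison against both controls is with this average. All 10 tenocyte markers, Mkx among them, were detected, and 6 of them fell against both controls (edgeR, median log2 fold change -1.24, beside 4.65% of all tested genes called). Against Mkx-CreER/+ alone 1 of them was called, Mkx itself (median -0.78, beside 0.00624% of all tested genes), and against Mkx flox/+ alone 6 were (beside 7.27%). The summed level of the 10 markers was 24070 to 31500 CPM in Mkx-CreER/flox, 40180 to 51750 CPM in Mkx-CreER/+ and 62770 to 126300 CPM in Mkx flox/+. Of the markers of other tissue cells, 3 of 9 mural (median 0.78), 2 of 12 endothelial (0.40), 6 of 32 skeletal muscle (0.53) and 1 of 11 Schwann cell markers (2.04) rose against both controls. Against Mkx-CreER/+ alone, 0 markers in each of these lists were called, beside 0.00624% of all tested genes. The medians in that comparison were 0.90 for mural, 0.25 for endothelial, 0.31 for skeletal muscle and 1.89 for Schwann cell markers. The part of these markers in the results below was not tested, beyond a fit with the muscle marker level as a covariate. Skeletal muscle markers took 8.25 to 12.9% of counts in Mkx-CreER/flox, 3.60 to 9.11% in Mkx-CreER/+ and 1.87 to 5.75% in Mkx flox/+, and mitochondrially encoded genes took 3.96 to 8.85%, 2.33 to 4.78% and 1.92 to 2.31% in the same order of genotypes. Mkx-CreER/flox 1 was the highest library in both measures. In bulk tendon, fewer cells of a type and less RNA per cell cannot be told apart.

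The interferon-stimulated genes were mostly expressed at modest levels in tendon. Per kilobase of exon, the median of the 36 genes was 2.40 CPM averaged over all libraries, against 3.74 CPM for all tested genes with a known length, and 14 of the 36 lay above that median. Ifi27l2a, which encodes a small interferon-induced membrane protein, stood far above the rest at 219.5 CPM per kilobase, a level higher than that of 99.2% of tested genes. The next were Bst2 (tetherin, which holds budding virions on the cell surface) at 10.7, Samd9l (an interferon-induced restraint on growth and viral translation) at 9.53 and Gbp2 (a guanylate-binding protein) at 7.42 CPM per kilobase. At the other end lay Oas3 with 0.0704, Oasl1 with 0.310, Ifi44 with 0.355 and Zbp1 with 0.362 CPM per kilobase. Isg15, the ubiquitin-like protein that the deconjugating and ligating enzymes act on, was close to the detection limit, with 0.0905, 1.08 and 0.296 CPM in Mkx-CreER/flox, 0.518, 0.526 and 1.01 CPM in Mkx-CreER/+ and 0.195, 0.454, 0.455 and 0.839 CPM in Mkx flox/+. Fewer than 10 counts were recorded in 7 libraries for Isg15, in 6 for Oas3, in 5 for Oasl1 and in 2 each for Oas1a, Ifi44 and Zbp1, so differences in these genes rest on few reads.

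**Figure D1:**
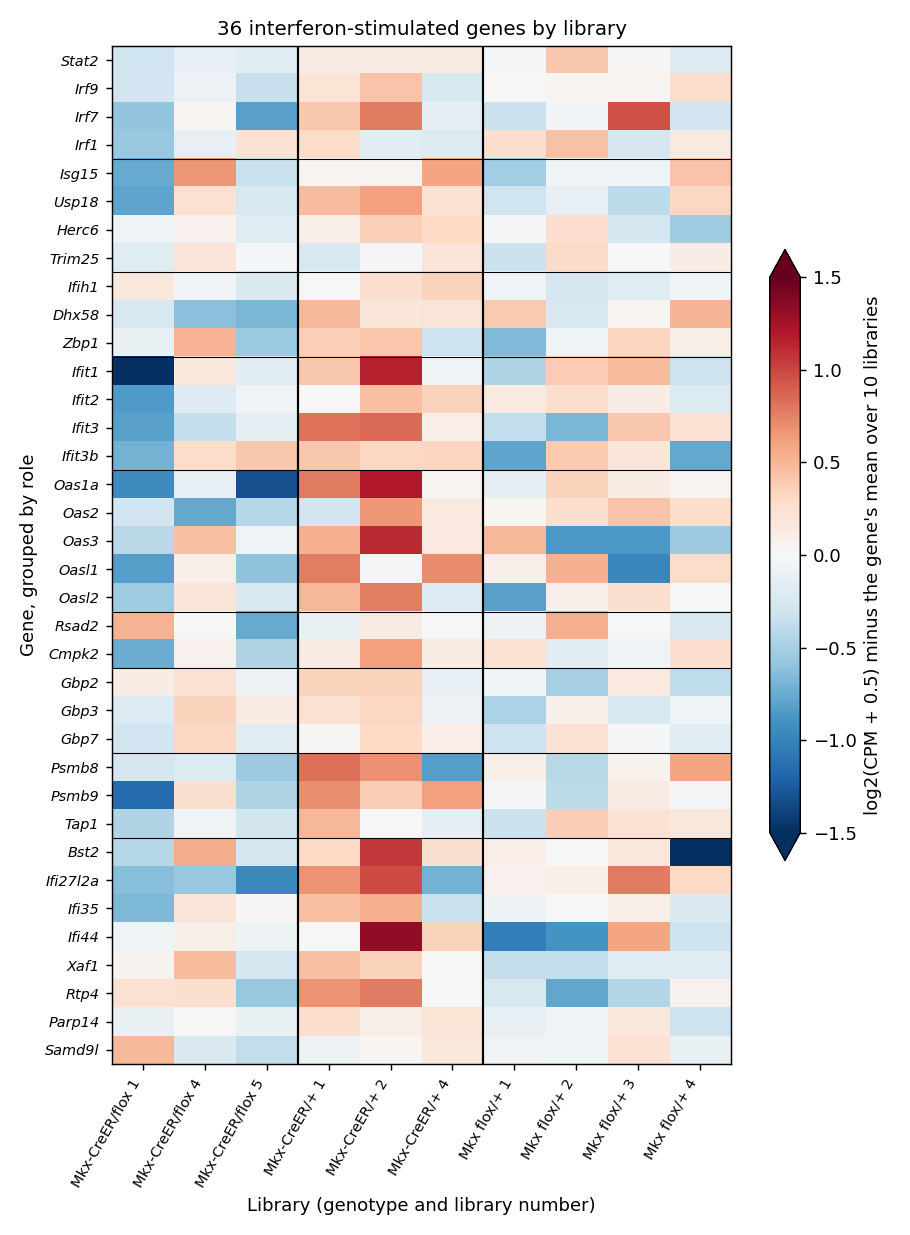
Each row is 1 of the 36 genes, grouped by role, and each column is 1 library, with Mkx-CreER/flox on the left, Mkx-CreER/+ in the middle and Mkx flox/+ on the right. Colour gives log2(CPM + 0.5) minus the gene's mean over the 10 libraries, with the scale ending at 1.5 in either direction. Mkx-CreER/+ 2 is the highest library for 16 of the 36 genes (44.4%, beside 7.57% of all tested genes) and Mkx-CreER/flox 1 the lowest for 11 (30.6%, beside 23.9%).

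Against the mean of both controls, none of the 36 genes passed an adjusted p of 0.05 in edgeR's quasi-likelihood test with Benjamini-Hochberg adjustment over all 16017 genes, at which 4.65% of all tested genes were called. The log2 fold change was nevertheless negative for 33 of the 36 genes, and for 48.5% of all tested genes, and its median was -0.25 over the 36 genes and 0.02 over all tested genes. At an unadjusted p under 0.05 there were 7 genes, each lower in Mkx-CreER/flox (19.4% of the 36, beside 8.73% of all tested genes in that direction and 20.7% in either). They were Ifi27l2a, Oas1a, Oas2, Dhx58, Ifit3, Ifit2 and Irf7. DESeq2 called 3 of them, Ifi27l2a, Oas1a and Oas2, beside 9.48% of all genes to which it gave an adjusted p. With each library left out in turn, between 26 and 33 genes had a negative log2 fold change, between 5 and 9 had an unadjusted p under 0.05, and Ifi27l2a was called by edgeR in 1 of the 10 omissions, that of Mkx-CreER/+ 4 (adjusted p = 0.00563). The median was -0.52 without Mkx-CreER/flox 4. Shares of all tested genes were not counted for these omissions.

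Ifi27l2a (ENSMUSG00000079017, chr12:103442167-103443680, minus strand, mm10 with GENCODE vM21, as for the positions below) came nearest to the threshold. It had 58.7, 61.8 and 46.7 CPM in Mkx-CreER/flox, against 147, 182 and 56.1 CPM in Mkx-CreER/+ and 96.4, 97.3, 158 and 113 CPM in Mkx flox/+. All 4 Mkx flox/+ libraries and 2 of the 3 Mkx-CreER/+ libraries lay above every Mkx-CreER/flox library, while Mkx-CreER/+ 4 lay inside the Mkx-CreER/flox range. The log2 fold change against both controls was -1.13 ± 0.30 (SE, 95% interval -1.78 to -0.48, edgeR adjusted p = 0.0512, n = 3 against 7).

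The OAS family is named for enzymes that sense double-stranded RNA and make the adenylate chains that activate RNase L. Its 5 genes, the OAS-like Oasl1 and Oasl2 among them, had a median log2 fold change of -0.78 against both controls. The genes Oas2 (ENSMUSG00000032690, chr5:120730333-120749853), Oas3 (chr5:120753098-120777661) and Oas1a (ENSMUSG00000052776, chr5:120896256-120907521) lie close together on the minus strand. Oas2 had 6.24, 4.32 and 5.62 CPM in Mkx-CreER/flox, against 6.29, 12.5 and 8.62 CPM in Mkx-CreER/+ and 7.88, 9.31, 10.6 and 9.35 CPM in Mkx flox/+. Every Mkx-CreER/flox library lay below every control library, by a narrow margin at Mkx-CreER/+ 1, and the log2 fold change was -0.78 ± 0.26 (SE, 95% interval -1.34 to -0.22, edgeR adjusted p = 0.104). Oas1a had 0.724, 1.67 and 0.444 CPM in Mkx-CreER/flox, against 3.55, 4.94 and 1.93 CPM in Mkx-CreER/+ and 1.66, 2.5, 2.05 and 1.92 CPM in Mkx flox/+. Its Mkx-CreER/flox libraries overlapped the controls at Mkx-CreER/flox 4 only, and the log2 fold change was -1.44 ± 0.48 (SE, edgeR adjusted p = 0.101). Oas1a values are uncertain in a further way, since 57.6% of its 50-base stretches also occur in transcripts of Oas1g and the sources used here do not state how such reads were counted. Oasl1, Oasl2 and Oas3 had log2 fold changes of -1.10, -0.33 and -0.004, and the interval of each included 0.

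**Figure D2:**
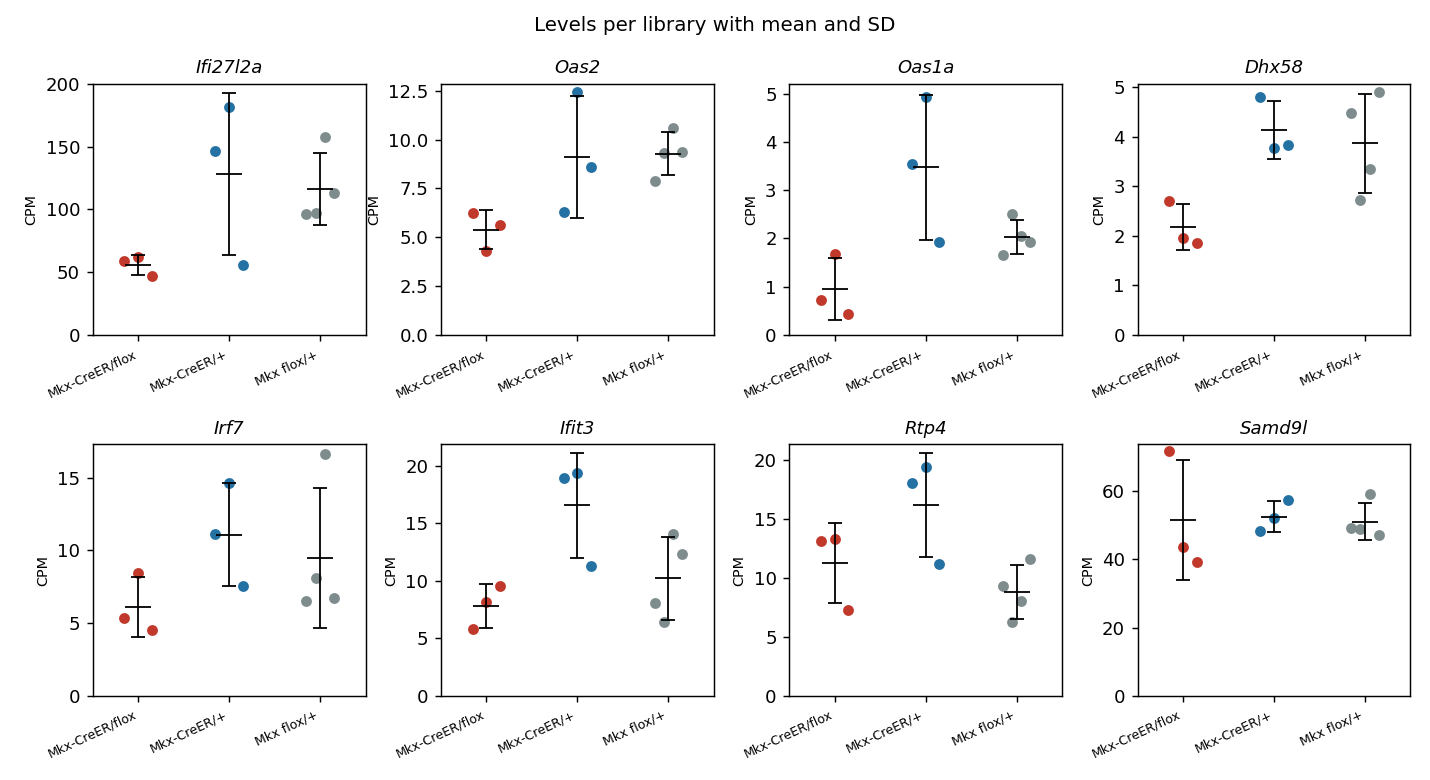
CPM per library (points) with the mean and SD (bars) for 8 genes in Mkx-CreER/flox (n = 3), Mkx-CreER/+ (n = 3) and Mkx flox/+ (n = 4), each panel on its own linear axis from 0. Oas2 and Dhx58 do not overlap between Mkx-CreER/flox and the 7 controls, Ifi27l2a overlaps only at Mkx-CreER/+ 4, and Samd9l shows no separation.

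The IFIT proteins, which bind viral RNA and block its translation, gave a median log2 fold change of -0.63 over 4 genes. The 4 genes lie side by side on the plus strand, from Ifit2 (chr19:34550694-34576419) through Ifit3 (chr19:34583531-34588731) and Ifit3b to Ifit1 (chr19:34640871-34650009). Ifit3 had 5.79, 8.10 and 9.54 CPM in Mkx-CreER/flox, against 18.9, 19.4 and 11.3 CPM in Mkx-CreER/+ and 8.08, 6.36, 14.1 and 12.4 CPM in Mkx flox/+. The Mkx-CreER/flox libraries lay below all Mkx-CreER/+ libraries and among the lower Mkx flox/+ libraries. The log2 fold change against both controls was -0.73 ± 0.29 (SE, edgeR adjusted p = 0.166). Ifit3 shares 51.2% of its 50-base stretches with Ifit3b, whose log2 fold change was -0.03 ± 0.42 (SE), so the division of reads between the 2 genes is uncertain. Ifit2, which shares no such stretch with another gene, had 11.9, 19.0 and 20.8 CPM in Mkx-CreER/flox, against 21.7, 30.0 and 27.8 CPM in Mkx-CreER/+ and 24.0, 26.0, 23.5 and 18.8 CPM in Mkx flox/+. Only Mkx flox/+ 4 among the controls reached into the Mkx-CreER/flox range, and the log2 fold change was -0.52 ± 0.21 (SE, edgeR adjusted p = 0.169). Ifit1 gave -0.75 ± 0.43 (SE, edgeR adjusted p = 0.346).

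Among the nucleic acid sensors, Dhx58 (ENSMUSG00000017830, chr11:100694884-100704271, minus strand), which encodes the RNA-binding helicase LGP2, stood apart from the other two. It had 2.71, 1.96 and 1.85 CPM in Mkx-CreER/flox, against 4.81, 3.78 and 3.83 CPM in Mkx-CreER/+ and 4.48, 2.73, 3.35 and 4.92 CPM in Mkx flox/+. The groups did not overlap, though the highest Mkx-CreER/flox library and the lowest control differed by less than 0.346 CPM, the worth of 3 counts in the shallowest library. The log2 fold change was -0.88 ± 0.32 (SE, 95% interval -1.57 to -0.19, edgeR adjusted p = 0.134). The log2 fold changes of Ifih1, which encodes the double-stranded RNA sensor MDA5, and of Zbp1, a sensor of left-handed nucleic acids that triggers cell death, were -0.06 ± 0.17 and -0.06 ± 0.51 (SE). With Oas2, Dhx58 made up the 2 of 36 genes whose Mkx-CreER/flox libraries all lay below the 7 controls (5.56%, beside 3.12% of all tested genes), and none lay above (3.81% of all tested genes). The count was 7 without Mkx-CreER/flox 4, 4 without Mkx-CreER/+ 4 and 4 without Mkx flox/+ 4. Non-overlap is easier to reach with fewer libraries, and the share of all tested genes was not counted for these omissions.

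The factors that carry the interferon signal to DNA gave a median log2 fold change of -0.33 over 4 genes. Irf7 (chr7:141262706-141266481, minus strand), which amplifies type I interferon transcription, had 5.34, 8.44 and 4.51 CPM in Mkx-CreER/flox, against 11.1, 14.6 and 7.53 CPM in Mkx-CreER/+ and 6.52, 8.06, 16.7 and 6.71 CPM in Mkx flox/+. The groups overlapped, with Mkx-CreER/flox 4 above 4 control libraries, and the log2 fold change was -0.75 ± 0.34 (SE, edgeR adjusted p = 0.235). Stat2 and Irf9, subunits of the type I interferon complex, gave -0.30 ± 0.17 and -0.36 ± 0.18 (SE), and Irf1 gave -0.20 ± 0.21 (SE). In the immunoproteasome and peptide transport group the median was -0.62, with Psmb8 and Psmb9, its catalytic subunits, at -0.62 each and the peptide transporter gene Tap1 at -0.40. Psmb9 had 3.17, 9.18 and 5.47 CPM in Mkx-CreER/flox, against 12.7, 10.1 and 12 CPM in Mkx-CreER/+ and 7.59, 5.68, 8.41 and 7.55 CPM in Mkx flox/+. Mkx-CreER/flox 4 lay above all 4 Mkx flox/+ libraries and the other two Mkx-CreER/flox libraries below all 4 of them (edgeR adjusted p = 0.252 against both controls).

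The remaining groups had smaller medians or mixed values. The Isg15 system (Isg15, the deconjugating protease Usp18, the mouse Isg15 ligase Herc6 and the ubiquitin ligase Trim25) had a median log2 fold change of -0.14, with a range of -0.40 to -0.01. The guanylate-binding proteins Gbp2, Gbp3 and Gbp7, which attack the membranes of intracellular microbes, had a median of 0.08 and lay between -0.07 and 0.11. Gbp2 had 19.9, 21.4 and 17.4 CPM in Mkx-CreER/flox, against 23.3, 23.3 and 16.8 CPM in Mkx-CreER/+ and 17.5, 12.8, 20.3 and 13.9 CPM in Mkx flox/+, and the 3 genotypes overlapped. The viperin gene Rsad2 and its neighbour Cmpk2, which encodes a nucleotide kinase, gave -0.04 ± 0.31 and -0.58 ± 0.29 (SE). Samd9l had 71.9, 43.7 and 39.3 CPM in Mkx-CreER/flox, against 48.2, 52.2 and 57.4 CPM in Mkx-CreER/+ and 49.2, 48.8, 59.2 and 47.2 CPM in Mkx flox/+. The highest and the lowest Samd9l value of all 10 libraries were both in Mkx-CreER/flox, and the log2 fold change was -0.01 (95% interval -0.41 to 0.39). Apart from Ifi27l2a, the remaining effectors (Bst2, Ifi35, Ifi44, Xaf1, Rtp4, Parp14 and Samd9l) lay between -0.28 and 0.13.

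**Figure D3:**
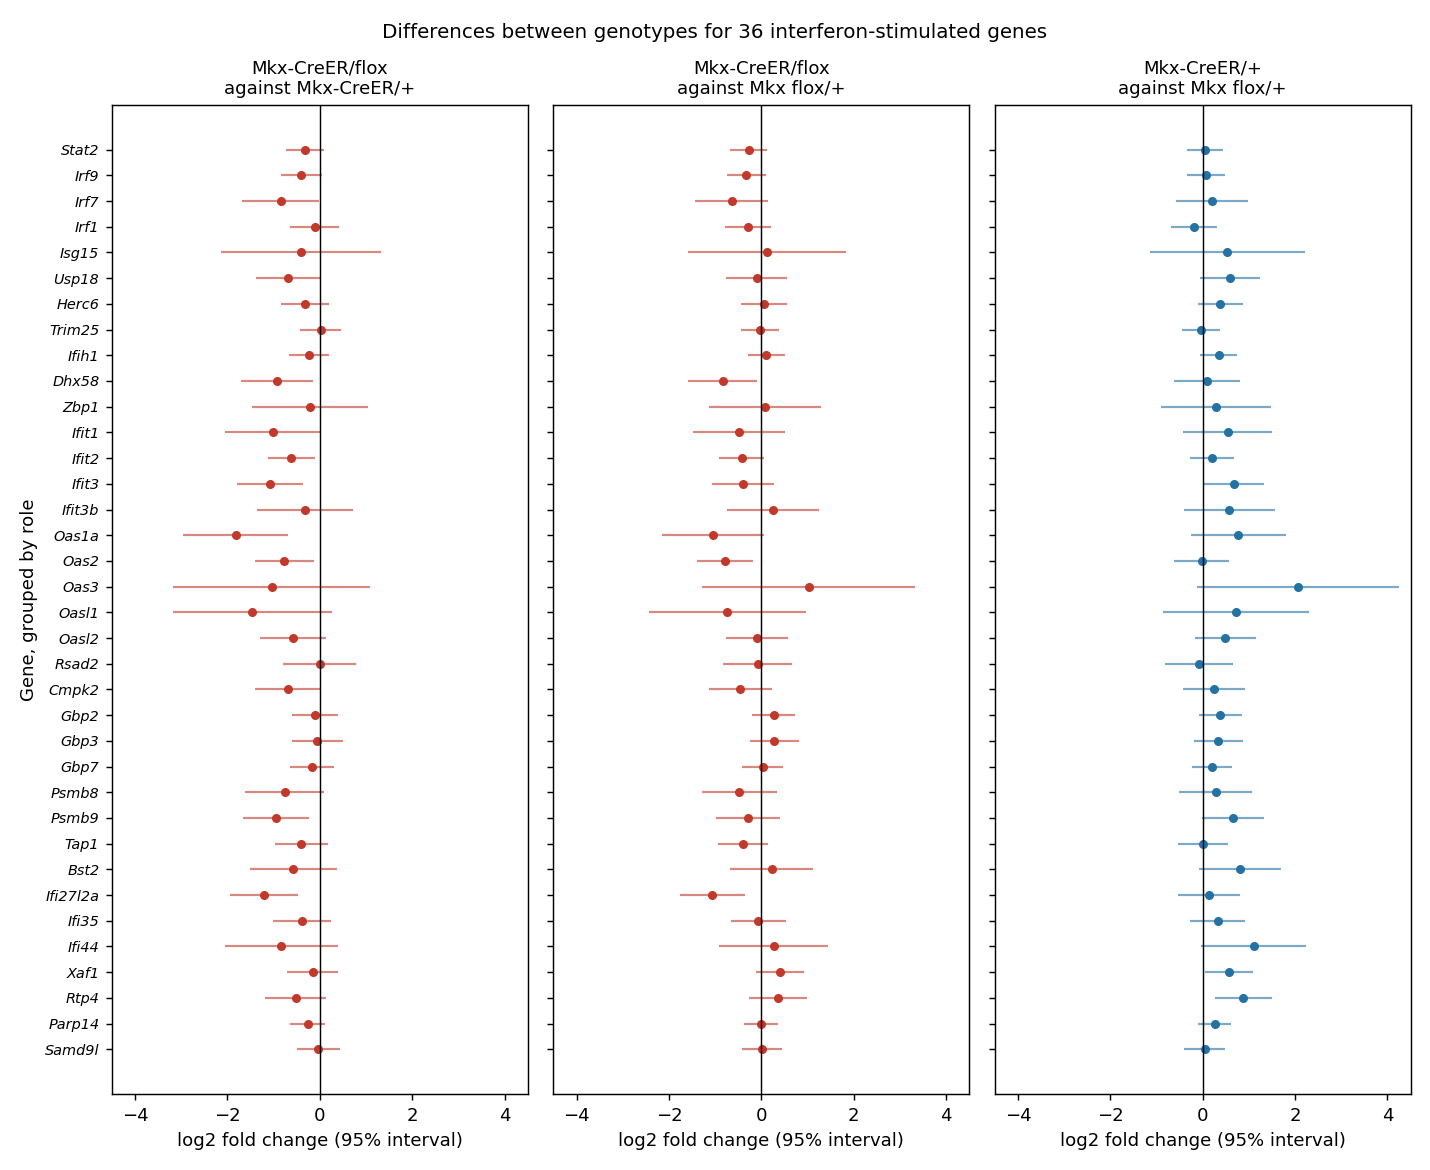
Log2 fold change (point) and 95% interval (line) of each of the 36 genes from the edgeR fit, in Mkx-CreER/flox against Mkx-CreER/+ (left), Mkx-CreER/flox against Mkx flox/+ (middle) and Mkx-CreER/+ against Mkx flox/+ (right). The comparisons share libraries. Points lie left of 0 for 34 of 36 genes on the left, for 22 in the middle and for 4 on the right.

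The 3 pairwise comparisons each share a genotype with another, so their values are given side by side. Against Mkx-CreER/+ alone, which differs from the mutant in the floxed allele, none of the 36 genes was called (edgeR, 0.00624% of all tested genes), 34 had a negative log2 fold change (47.1% of all tested genes), and the median was -0.47 against 0.03 for all tested genes. At an unadjusted p under 0.05 there were 8 genes, all lower in Mkx-CreER/flox (22.2%, beside 4.98% of all tested genes in that direction and 10.7% in either): Oas1a, Ifi27l2a, Ifit3, Psmb9, Ifit2, Oas2, Dhx58 and Irf7. For 11 genes every Mkx-CreER/flox library lay below every Mkx-CreER/+ library (30.6%, beside 6.14% of all tested genes). These were Oas1a, Oas2, Ifit2, Ifit3, Dhx58, Psmb9, Stat2, Usp18, Herc6, Cmpk2 and Parp14, and none lay above (6.65% of all tested genes). The counts depend on single libraries, and the matching shares of all tested genes were not counted for the omissions. Non-overlap is easier to reach with fewer libraries, so the counts after omission have no background here. Without Mkx-CreER/+ 4, 16 genes had an unadjusted p under 0.05, 22 did not overlap and Ifi27l2a was called (edgeR adjusted p = 0.0261), and without Mkx-CreER/+ 2, 5 genes had an unadjusted p under 0.05. Without Mkx-CreER/flox 4, 22 genes did not overlap. DESeq2 gave an adjusted p to 29 of the 36 genes here, Oas1a not among them, and called Ifi27l2a alone (adjusted p = 0.04997, beside 1.03% of all genes with an adjusted p).

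The following 4 genes had the smallest p against Mkx-CreER/+. Oas1a had a log2 fold change of -1.82 (95% interval -2.97 to -0.68), Ifi27l2a of -1.20 (-1.94 to -0.46), Ifit3 of -1.08 (-1.78 to -0.37) and Psmb9 of -0.95 (-1.67 to -0.23), each with an edgeR adjusted p between 0.329 and 0.345. Estimates of similar size in Oasl1 (-1.46), Oas3 (-1.04) and Ifit1 (-1.02) had 95% intervals that included 0. As a group the 5 OAS genes had a median of -1.04, the 4 IFIT genes of -0.82 and the 3 immunoproteasome and transport genes of -0.76, against -0.36 for the signalling factors, -0.36 for the Isg15 system, -0.23 for the sensors and -0.11 for the guanylate-binding proteins. Rsad2 and Trim25 were the 2 genes without a negative value, at 0.00 and 0.02.

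Against Mkx flox/+ alone, which lacks Cre, none of the 36 genes was called (edgeR, 7.27% of all tested genes), 22 had a negative log2 fold change (49.2% of all tested genes), and the median was -0.08 against 0.01. An unadjusted p under 0.05 was reached by 3 genes, all lower in Mkx-CreER/flox (8.33%, beside 10.3% of all tested genes in that direction and 23% in either). Ifi27l2a had a log2 fold change of -1.06 (95% interval -1.76 to -0.36, edgeR adjusted p = 0.0673), Dhx58 of -0.83 (-1.58 to -0.08, edgeR adjusted p = 0.171) and Oas2 of -0.79 (-1.40 to -0.18, edgeR adjusted p = 0.109). In these 3 genes and in Irf9 every Mkx-CreER/flox library lay below every Mkx flox/+ library (11.1%, beside 9.5% of all tested genes), and none lay above (10% of all tested genes). The count below was 8 without Mkx-CreER/flox 4 and 6 without Mkx flox/+ 1 or Mkx flox/+ 4, and 3 genes lay above without Mkx-CreER/flox 5. These counts after omission also have no share of all tested genes beside them. The median was -0.31 without Mkx-CreER/flox 4, -0.17 without Mkx flox/+ 1, -0.13 without Mkx flox/+ 4, -0.04 without Mkx flox/+ 2 and -0.02 without Mkx-CreER/flox 1. Ifi27l2a was called in the fit to the Mkx-CreER/flox and Mkx flox/+ libraries alone (adjusted p = 0.0198), without Mkx-CreER/+ 4 (0.0113), without Mkx-CreER/+ 2 (0.0497) and by DESeq2 (0.0149, 1 of 34 genes with an adjusted p, beside 12.1% of all such genes). The guanylate-binding proteins had a median of 0.27, Rtp4 gave 0.36 (95% interval -0.27 to 0.99) and Xaf1 0.41 (-0.11 to 0.93), so the 36 genes did not share a direction in this comparison.

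The controls differed from each other as well. In Mkx-CreER/+ against Mkx flox/+, the log2 fold change was positive for 32 of the 36 genes and negative for Oas2, Irf1, Trim25 and Rsad2 (11.1% negative, beside 49.7% of all tested genes), with a median of 0.33 against 0.00 for all tested genes. edgeR called none of the 36 genes and no gene in the table (0% of all tested genes). At an unadjusted p under 0.05 there were 3 genes, all higher in Mkx-CreER/+ (8.33%, beside 2.32% of all tested genes in that direction and 4.98% in either), and DESeq2 called none of the 36 (0.261% of all genes with an adjusted p). Ifih1, Bst2, Xaf1 and Psmb9 were the 4 genes whose Mkx-CreER/+ libraries all lay above the Mkx flox/+ libraries (11.1%, beside 2.88% of all tested genes), and none lay below (3.89% of all tested genes). Without Mkx-CreER/+ 4, 15 genes did not overlap, 7 had an unadjusted p under 0.05 and the median was 0.50. Without Mkx-CreER/+ 2, 1 gene had an unadjusted p under 0.05, 7 were negative and the median was 0.21. The number with an unadjusted p under 0.05 was 5 without Mkx-CreER/flox 1 or Mkx flox/+ 3. The number that did not overlap was 8 without Mkx flox/+ 2, 7 without Mkx flox/+ 4 and 6 without Mkx-CreER/+ 1, Mkx-CreER/+ 2 or Mkx flox/+ 3. Here too, shares of all tested genes were not counted for the omissions, and fewer libraries make non-overlap easier to reach.

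The named genes of this contrast were led by Rtp4, a chaperone of G-protein-coupled receptors that interferon induces. It had 18.1, 19.5 and 11.2 CPM in Mkx-CreER/+, against 9.34, 6.25, 8.07 and 11.6 CPM in Mkx flox/+, while the Mkx-CreER/flox libraries had 13.1, 13.4 and 7.32 CPM. Mkx-CreER/+ 4 lay just inside the Mkx flox/+ range, and the log2 fold change was 0.88 (95% interval 0.26 to 1.5, edgeR adjusted p = 0.739). Some Rtp4 reads are uncertain, since 11.6% of its 50-base stretches are shared with an overlapping gene model on the same strand. Xaf1, which binds the apoptosis inhibitor XIAP, had 14.3, 13.1 and 10.3 CPM in Mkx-CreER/+, against 7.88, 7.84, 9.04 and 9.11 CPM in Mkx flox/+, and 10.7, 14.4 and 8.58 CPM in Mkx-CreER/flox. Its control groups did not overlap, at a log2 fold change of 0.57 (95% interval 0.05 to 1.08, edgeR adjusted p = 0.936). Ifit3 gave 0.69 (95% interval 0.03 to 1.34, edgeR adjusted p = 0.979) and Psmb9 0.66 (-0.01 to 1.33).

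Bst2 and the low-count genes Ifi44 and Oas3 varied widely between single libraries. Bst2 had 10.8, 18.7 and 10.4 CPM in Mkx-CreER/+, against 9.34, 8.75, 9.89 and 2.28 CPM in Mkx flox/+, and 6.33, 13.1 and 7.17 CPM in Mkx-CreER/flox. The Mkx-CreER/+ libraries were all higher than the Mkx flox/+ ones, with Mkx flox/+ 4 well below the rest. Ifi44 had 1.92, 5.57 and 2.57 CPM in Mkx-CreER/+, against 0.681, 0.795, 3.13 and 1.44 CPM in Mkx flox/+, and 1.81, 2.06 and 1.77 CPM in Mkx-CreER/flox. Oas3 had 0.814, 1.47 and 0.505 CPM in Mkx-CreER/+, against 0.779, 0, 0 and 0.120 CPM in Mkx flox/+, and 0.181, 0.736 and 0.370 CPM in Mkx-CreER/flox. With 0 counts in 2 libraries and at most 28 counts in any, the Oas3 log2 fold change of 2.07 had a 95% interval of -0.13 to 4.26.

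Counted by library, the high values were concentrated in Mkx-CreER/+ and the low values were divided between the other genotypes at shares nearer to those of all tested genes. Mkx-CreER/+ 2 was the highest of the 10 libraries for 16 of the 36 genes (44.4%, beside 7.57% of all tested genes) and Mkx-CreER/+ 1 for 7. By genotype, the highest library was in Mkx-CreER/flox for 6 genes (16.7%, beside 42.1% of all tested genes) and in Mkx-CreER/+ for 24 (66.7%, beside 19.1%). It was in Mkx flox/+ for 6 (16.7%, beside 38.7%). The lowest was in Mkx-CreER/flox for 19 genes (52.8%, beside 39.7% of all tested genes). Of these, 11 were in Mkx-CreER/flox 1 (30.6%, beside 23.9%) and 7 in Mkx-CreER/flox 5 (19.4%, beside 7.55%). The lowest was in Mkx-CreER/+ for 1 gene (2.78%, beside 19.7%) and in Mkx flox/+ for 16 (44.4%, beside 40.6%). The summed level of the 36 genes was 466 ± 45.0 CPM in Mkx-CreER/flox (SD, range 432 to 517, n = 3), 649 ± 112 in Mkx-CreER/+ (528 to 750, n = 3) and 558 ± 50.8 in Mkx flox/+ (507 to 627, n = 4). Mkx-CreER/flox 4 lay within the Mkx flox/+ range of this sum, and below the lowest Mkx-CreER/+ library. Ifi27l2a alone made up 55.8 CPM of the mean sum in Mkx-CreER/flox, 128 CPM in Mkx-CreER/+ and 116 CPM in Mkx flox/+. A sum of CPM gives this gene the largest weight, so differences in the sum are not those of a typical gene of the 36.

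**Figure D4:**
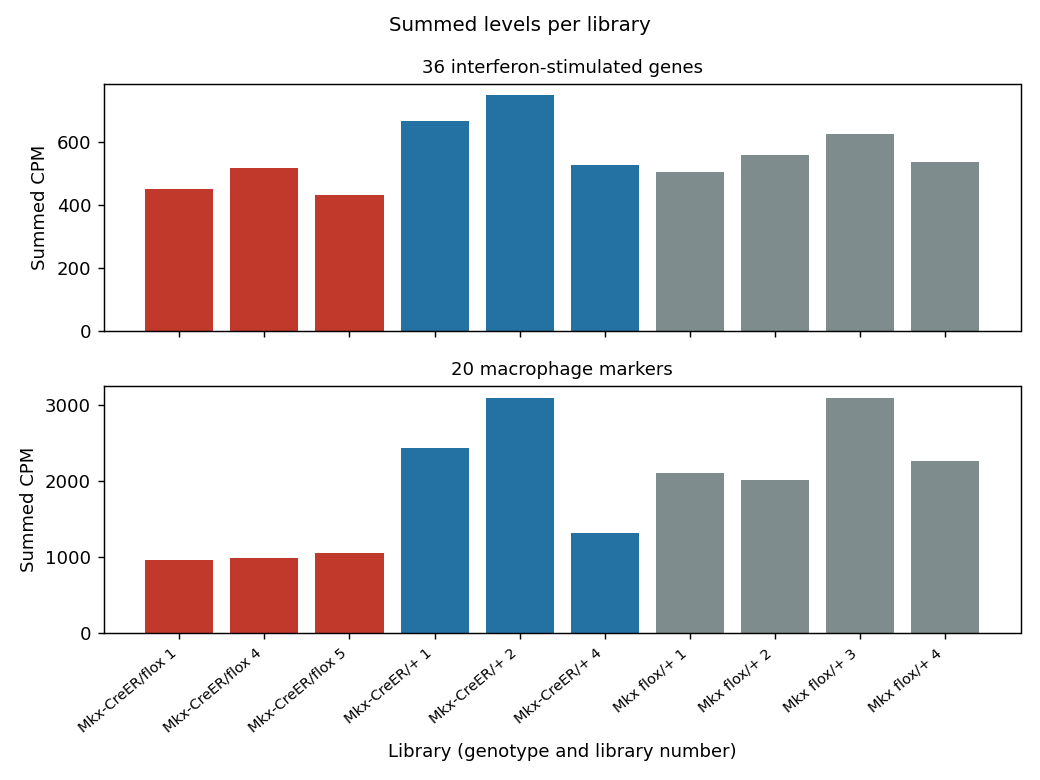
Summed CPM per library of the 36 interferon-stimulated genes (top) and of 20 macrophage markers (bottom), with Mkx-CreER/flox on the left, Mkx-CreER/+ in the middle and Mkx flox/+ on the right, both axes from 0. Ifi27l2a has the highest mean CPM of the 36 genes in each genotype and so the largest weight in the top sum. The macrophage sum of the Mkx-CreER/flox libraries lies between 966 and 1052 CPM, below every control library, of which Mkx-CreER/+ 4 is the lowest at 1323 CPM.

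The summed level of macrophage markers was lower in every Mkx-CreER/flox library than in any control, while the interferon-stimulated genes had a median log2 fold change of -0.47 against Mkx-CreER/+, of -0.08 against Mkx flox/+ and of 0.33 between the controls. All 20 listed markers were tested and none was at 0 in a genotype. Their summed level was 966 to 1052 CPM in Mkx-CreER/flox, 1323 to 3095 CPM in Mkx-CreER/+ and 2016 to 3093 CPM in Mkx flox/+. Of the 20 markers, 16 were lower against both controls (edgeR, median log2 fold change -1.20, beside 4.65% of all tested genes called). Against Mkx-CreER/+ 0 passed (median -1.12, beside 0.00624% of all tested genes), and against Mkx flox/+ 15 were lower (median -1.26, beside 7.27%). Between the controls 0 passed (median -0.08, beside 0%). Csf1r, the receptor that macrophages need to survive, had a log2 fold change of -1.37 ± 0.26 (SE, edgeR adjusted p = 0.0199) against both controls. Within Mkx-CreER/+, library 4 had the lowest macrophage sum and the lowest Ifi27l2a value, and library 2 the highest of both. Within Mkx flox/+, library 3 was the highest of both, while library 2 had the lowest macrophage sum and library 1 the lowest Ifi27l2a value. The order differed within Mkx-CreER/flox, where library 5 had the highest macrophage sum and the lowest Ifi27l2a value. Whether these levels are related was not tested. With the mean log2 CPM of the macrophage markers as a covariate, 18 of the 36 genes had a negative log2 fold change against both controls, with a median of -0.01, and Ifi27l2a gave 0.49 ± 0.31 (SE, edgeR adjusted p = 0.9999). The covariate was 4.65 to 4.82 in Mkx-CreER/flox, against 5.07 to 6.18 in Mkx-CreER/+ and 5.74 to 6.26 in Mkx flox/+, with no overlap, and 1 gene in the table was called with it. The macrophage marker level and the mutant genotype therefore cannot be told apart in these libraries.

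Lymphocyte and neutrophil markers were scarce. Lymphocyte and natural killer cell markers summed to 1.92 to 2.90 CPM in Mkx-CreER/flox, 3.20 to 7.31 CPM in Mkx-CreER/+ and 3.12 to 5.75 CPM in Mkx flox/+. The T cell marker Cd3e and the natural killer cell marker Ncr1 were at 0 in every Mkx-CreER/flox library, and the lymphocyte marker Ms4a1 in every Mkx flox/+ library. Only 3 of these 13 markers passed the filter, so zeros at such levels say little about a genotype. Neutrophil markers summed to 0.887 to 5.89 CPM in Mkx-CreER/flox, 4.54 to 13.7 CPM in Mkx-CreER/+ and 5.68 to 10.1 CPM in Mkx flox/+. Ly6g was at 0 in every Mkx-CreER/flox library and Mpo in every Mkx-CreER/+ library. Of the 8 neutrophil markers 3 passed the filter, and 1 of these was lower against Mkx flox/+ (edgeR, beside 7.27% of all tested genes called). Dendritic cell markers, 1 of which is also among the 38 genes, gave 420 to 442 CPM in Mkx-CreER/flox, 399 to 459 CPM in Mkx-CreER/+ and 350 to 423 CPM in Mkx flox/+. The sums hide a spread, as log2 fold changes against Mkx flox/+ ran from -1.11 to 4.92. In that comparison 1 of the 10 markers was called, as higher (edgeR, beside 7.27% of all tested genes), and none was called in the others. With the muscle marker level as a covariate, 29 of the 36 genes had a negative log2 fold change against both controls, with a median of -0.26.

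The interferon ligands themselves were hardly detected. Of 12 listed ligand genes, 1 passed the filter: Ifnk, which skin keratinocytes make, had 0.572 ± 0.205 CPM in Mkx-CreER/flox, 0.566 ± 0.408 CPM in Mkx-CreER/+ and 0.992 ± 0.496 CPM in Mkx flox/+ (SD), with at most 15 counts in a library. Ifnb1, Ifng, Ifna1, Ifna2, Ifna6, Ifne, Ifnl2 and Ifnl3 had 0 counts in every library, which allows up to 0.132 CPM in the deepest library and 0.346 CPM in the shallowest. Such limits cover counting error only. The receptors and kinases were expressed, and 0 of the 9 tested were called in any of the 4 comparisons. Ifnar1, a chain of the type I interferon receptor, had 81.9 ± 2.17 CPM in Mkx-CreER/flox, 88.2 ± 6.15 CPM in Mkx-CreER/+ and 88.3 ± 9.35 CPM in Mkx flox/+ (SD). Ifngr1 and Ifnar2, the receptor genes of smallest p, had log2 fold changes of -0.54 ± 0.24 and -0.40 ± 0.18 against both controls (SE, edgeR adjusted p = 0.208 and 0.226).

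Of 13 tested genes upstream of interferon production, Tlr7, an endosomal receptor for single-stranded RNA, was called. It had 7.60, 9.33 and 4.81 CPM in Mkx-CreER/flox, against 18.4, 27.1 and 8.75 CPM in Mkx-CreER/+ and 14.5, 17.5, 21.8 and 18.3 CPM in Mkx flox/+. The mutant libraries lay below all controls except Mkx-CreER/+ 4, and Tlr7 fell by 1.31 on the log2 scale against both controls (edgeR adjusted p = 0.0352) and against Mkx flox/+ (0.0346). Against Mkx-CreER/+ alone, 0 of the 13 genes were called (0.00624% of all tested genes), at a lowest log2 fold change of -1.31 and a smallest edgeR adjusted p of 0.329. The call against both controls stood in 2 of 10 omissions of a library, with an adjusted p of at most 0.105, and was lost without any of Mkx-CreER/flox 1, 4 and 5, Mkx-CreER/+ 1 and 2, and Mkx flox/+ 1, 2 and 3. Against Mkx flox/+ it stood in 3 of 10 and was lost without any Mkx-CreER/flox or Mkx flox/+ library. With the macrophage covariate the log2 fold change was 0.04, and with the muscle covariate -1.53 (edgeR adjusted p = 0.0725). Of the negative regulators, 0 of 9 tested were called. Samhd1, a nucleotide hydrolase, and Ptpn6, a phosphatase of blood cells, gave -0.51 ± 0.16 and -0.81 ± 0.26 against both controls (SE, edgeR adjusted p = 0.0762 and 0.0905).

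Antigen presentation by MHC class I, which interferons raise, held 1 called gene against both controls. Of 14 tested genes besides Psmb8, Psmb9 and Tap1, H2-D1, a classical class I heavy chain, fell in Mkx-CreER/flox. It had 232, 345 and 301 CPM in Mkx-CreER/flox, against 589, 592 and 420 CPM in Mkx-CreER/+ and 649, 612, 552 and 623 CPM in Mkx flox/+. Every mutant library lay below every control, with a log2 fold change of -0.96 ± 0.19 (SE, edgeR adjusted p = 0.0216) against both controls and -1.06 against Mkx flox/+ (edgeR adjusted p = 0.0117), and -0.87 against Mkx-CreER/+ (edgeR adjusted p = 0.328). The call against Mkx flox/+ stood in 10 of 10 omissions of a library. That against both controls stood in 6 of 10 and was lost, at an adjusted p of at most 0.0600, without 1 of 4 libraries (Mkx-CreER/flox 1 and 4, Mkx-CreER/+ 1 and 2). With the macrophage covariate its log2 fold change was -0.66 (edgeR adjusted p = 0.9999), and with the muscle covariate -0.91 (edgeR adjusted p = 0.0875). Reads of class I genes can be divided between near-identical copies, so the level of any 1 of them is uncertain. The loading protein gene Tapbp fell by 0.59 on the log2 scale against Mkx flox/+ (edgeR adjusted p = 0.0417, called in 2 of 10 omissions, lost without Mkx-CreER/flox 1 or 4, Mkx-CreER/+ 1 or 2, or any Mkx flox/+ library). The median over the 14 genes was -0.33 against both controls, with 12 negative.

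Among 45 tested interferon-induced genes outside the 38, none was called against both controls, 32 had a negative log2 fold change and the median was -0.21. Isg20, an interferon-induced exonuclease, and Ifitm2, a membrane protein that blocks viral entry, had the smallest p, at -0.77 ± 0.22 and -0.65 ± 0.20 (SE, edgeR adjusted p = 0.0584 and 0.0787). Against Mkx flox/+, Isg20 fell by 0.91 on the log2 scale (edgeR adjusted p = 0.0336) and Ifi203, a nuclear protein of the interferon-inducible p200 family, was higher by 0.90 (edgeR adjusted p = 0.0397). These calls stood in 4 of 10 and 1 of 10 omissions of a library. The call of Isg20 was lost without Mkx-CreER/flox 4 or 5 or any Mkx flox/+ library, and that of Ifi203 in every omission other than that of Mkx-CreER/flox 5. A list of GTPases, chemokines and other genes that interferon-gamma induces had a positive log2 fold change for 12 of 16 tested genes against both controls. Its median was 0.30, and none was called in that comparison. Nlrc5, Ciita, Ido1 and Irf8 are the listed genes that are neither GTPases nor chemokines. Iigp1, a GTPase that attacks parasite vacuoles, had 13.5, 18.1 and 12.1 CPM in Mkx-CreER/flox, against 9.54, 7.46 and 14.1 CPM in Mkx-CreER/+ and 7.20, 4.43, 3.24 and 9.71 CPM in Mkx flox/+. It lay above all Mkx flox/+ libraries and rose by 1.26 on the log2 scale against Mkx flox/+ (edgeR adjusted p = 0.0423), with an adjusted p of 0.114 against both controls. That call stood in 4 of 10 omissions and was lost without Mkx-CreER/flox 1 or 4, Mkx-CreER/+ 1, or Mkx flox/+ 1, 2 or 3. None of the calls of Tlr7, H2-D1, Tapbp, Isg20, Ifi203 and Iigp1 stood with the muscle or the macrophage covariate. Far fewer genes in all were called with either covariate than without it, so the loss of these calls is not particular to these genes. The calls of Tapbp, Ifi203 and Iigp1 did not stand in the edgeR fit to the Mkx-CreER/flox and Mkx flox/+ libraries alone (adjusted p = 0.0584, 0.0720 and 0.0615). The share of all tested genes called was 4.65% against both controls and 7.27% against Mkx flox/+. Against both controls, 1 of 13 upstream genes and 1 of 14 class I genes were called, and none in the other lists. Against Mkx flox/+ these were 1 of 13 and 2 of 14, with 2 of 45 interferon-induced and 1 of 16 interferon-gamma-induced genes. A single call in lists of this size is near the background, and the lists with 2 calls were not tested against it.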

How the data were processed

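Total RNA of Achilles tendon was sequenced by RamDA-seq, which suits small inputs, in 10 libraries of 3 genotypes. The authors deposited raw counts per Ensembl gene. Per the submitters' processing notes, reads were processed with fastp and STAR against mm10. Tool versions, the counter, its annotation, its strand setting and its handling of multi-mapping reads were not given in the sources used here. Each Mkx flox/+ column was assigned to a sample from its genotype and number, and those of Mkx-CreER/+ and Mkx-CreER/flox by genotype only. The 38 genes, their roles and the other gene lists were chosen with earlier results of these data known.

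Identifiers were paired with GENCODE vM21, which named 32158 of 32285 genes. Genes kept by filterByExpr were scaled by TMM and tested with edgeR 4.0.16 in R 4.3.3, in a quasi-likelihood model of all 10 libraries with a term per genotype, after the method was tested on simulated data. The mean of both controls gives equal weight to each control genotype. Adjusted p-values are Benjamini-Hochberg values over 16017 genes. CPM values are TMM-normalized, and exon lengths are unions of annotated exons. Genes named with every library's value are the 8 of smallest p against both controls, the 6 of smallest p in each other comparison, and the 4 of highest CPM per kilobase. From each other list, up to 4 called genes are named, or the 2 of smallest p, and Ifnar1 and Csf1r were added after their values were seen. Promoters are RefSeq windows. Alternatives were DESeq2 1.42.0, RLE scaling, other filters, fits to the groups compared, removal of mitochondrial, muscle and erythroid genes, a muscle or macrophage covariate, and the omission of each library. Counts without overlap after each omission were added after the data were seen, for the 36 genes only.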

Additional observations from a re-analysis of the deposited data

Results flagged for a closer look

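A sample far from the others was looked for in the Mkx flox/+ group, the one genotype with 4 libraries, over 38 measures (the 36 genes, their summed level and the summed macrophage markers), of which 5 met the rule of Dixon's 95% critical value. Chance alone flags about 1 in 20 such groups. Mkx flox/+ 4 had the highest Irf9 value at 31.9 CPM, with the other libraries between 26.4 and 26.9 CPM. Mkx flox/+ 3 had the highest Irf7 value at 16.7 CPM, with the others between 6.52 and 8.06 CPM, and the highest Samd9l value at 59.2 CPM, with the others between 47.2 and 49.2 CPM. Mkx flox/+ 1 had the highest Oas3 value at 0.779 CPM, with the others between 0 and 0.120 CPM. Mkx flox/+ 4 had the lowest Bst2 value at 2.28 CPM, with the others between 8.75 and 9.89 CPM.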

How the results depend on the processing

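Over the alternatives, 441 of 458 values of single named genes kept their direction and their side of the threshold, 11 passed it and 6 changed sign, all 6 with the macrophage covariate: Ifi27l2a (0.49 against both controls, 0.39 against Mkx-CreER/+, 0.60 against Mkx flox/+), Irf7 (0.49 against both controls, 0.69 against Mkx flox/+) and Ifit3 (0.22 against both controls). Against both controls, all genes called numbered 744, but 1459 in DESeq2, 43 with the muscle covariate, 1 with the macrophage covariate and 64 to 1114 with a library left out. The interferon-stimulated genes called were 3 in DESeq2, 1 with mitochondrial, muscle and erythroid genes removed (Ifi27l2a) and 0 to 1 with a library left out, and their median log2 fold change was -0.0127 with the macrophage covariate and -0.52 to -0.22 with a library left out. Against Mkx-CreER/+, 1 gene was called, but 126 in DESeq2, 9 with no filter, 0 in the fit to those groups, 0 with the macrophage covariate and 0 to 117 with a library left out; 1 of the 36 was called in DESeq2 and 0 to 1 with a library left out, and their median was -0.10 with the macrophage covariate and -0.67 to -0.35 with a library left out. Against Mkx flox/+, 1165 genes were called, but 1866 in DESeq2, 123 with the muscle covariate, 1 with the macrophage covariate and 455 to 1585 with a library left out; of the 36, DESeq2 and the fit to those groups called 1 each, 0 to 1 were called with a library left out, and the median was -0.31 to -0.0150 with a library left out and 0.11 with the macrophage covariate. In Mkx-CreER/+ against Mkx flox/+, 0 genes were called, but 37 in DESeq2 and 0 with any library left out, and the median of the 36 was 0.21 to 0.50. The cause of these differences was not tested. No paired analysis was possible because the Mkx-CreER/+ and Mkx-CreER/flox columns carry numbers that are not the labels' replicate numbers. Low counts limit Isg15, Oas3, Oasl1, Oas1a, Zbp1 and Ifi44.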
